A study of Mus musculus with 9 samples.

Results

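The genes of MHC class II antigen presentation were read in mouse bone marrow macrophages treated with JHU083 or WGFT17 or left as Control. They are H2-Aa, H2-Ab1, H2-Eb1, H2-DMa, H2-DMb1, H2-DMb2, H2-Oa, Cd74 and Ciita, matched by gene symbol, 9 genes of 28998 in the table. The cells came from bone marrow monocytes of wild-type C57 mice, and all groups were differentiated with GM-CSF, a myeloid growth factor, for 7 days. JHU083 cells (3 libraries) and WGFT17 cells (3 libraries) were then treated for 36 h, with doses not given in the sources used here. Control cells (3 libraries) have no stated vehicle or culture time, so a difference in culture time and a drug effect cannot be told apart in a comparison with Control. JHU083 is known as a prodrug of the glutamine antagonist DON, and WGFT17 is a code name. No label states separate cultures or animals behind the libraries of a group, and the p-values then speak of library-to-library spread, which may be technical.

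MHC class II molecules are surface heterodimers of an alpha and a beta chain that show peptides from endosomes to CD4+ T cells. The invariant chain, encoded by Cd74, guides the new dimer to the endosome and blocks its groove; the leftover fragment is exchanged for peptide with the help of H2-DM, which H2-O restrains. Transcription of these genes needs CIITA, a coactivator that does not bind DNA itself and is recruited by the RFX, CREB and NF-Y factors sitting on the X and Y boxes of class II promoters. In myeloid cells CIITA is known to be induced by interferon-γ, and GM-CSF cultures of bone marrow are known to hold class II-positive macrophage-like and dendritic-like cells.

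In class II promoters the X box is known to stand a near-constant distance before the Y box, whose core reads GATTGG. RefSeq promoter windows (GRCm38.p6) were held for 6 of the 9 genes. They were searched on both strands for AAC, then 26 or 27 bases of any kind, then GATTGG, a pattern written after these windows had been read. It was found in 5 of the 6 (H2-Aa, H2-Eb1, H2-DMb1, H2-DMb2 and H2-Oa) and in neither window of H2-DMa. The window of H2-Ob, a class II gene not among the 9, was searched too and did not hold the pattern. Of all 32851 windows of the same length, 166 held it (0.505%), while GATTGG alone stood in 16.1%. The windows of 3 genes are shown because these genes had the 2 largest falls and the smallest fall of those called in WGFT17 against Control; capitals mark AAC and GATTGG. They lie at chr17:34287863-34287910 on the minus strand (H2-Aa), chr17:34305770-34305816 on the plus strand (H2-Eb1) and chr17:34145120-34145167 on the plus strand (H2-DMb2).
H2-Aa: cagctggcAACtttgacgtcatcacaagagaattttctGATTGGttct
H2-Eb1: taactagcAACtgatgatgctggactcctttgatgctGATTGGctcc
H2-DMb2: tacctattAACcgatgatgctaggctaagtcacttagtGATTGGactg
GATTGG began 49, 60 and 91 bases before the RefSeq start of H2-Aa, H2-Eb1 and H2-DMb2, and 62 and 44 bases before that of H2-DMb1 and H2-Oa. H2-Ab1, Cd74 and Ciita had no window. A match is a description of letters, not a measured binding site.

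The deposited totals were 56624220 to 69112134 estimated counts per library, about 14156055 to 17278034 read pairs at about 4 counts per pair. The summed level of 14 macrophage marker genes was 21700 to 22900 CPM (counts scaled to the library total) in JHU083, 19400 to 21600 in WGFT17 and 20800 to 22200 in Control. Such a sum follows its most abundant genes, and singly 4 of the 14 were higher and 6 lower in WGFT17 than in Control. Adgre1, which encodes F4/80 and was among those that did not pass there, averaged 257 FPKM (fragments scaled to transcript length and depth) in JHU083, 253 FPKM in WGFT17 and 226 FPKM in Control. Stromal and endothelial markers summed to 10300 to 11900 CPM in JHU083, 2590 to 2770 in WGFT17 and 15600 to 16700 in Control. Photoreceptor transcripts were high in all Control libraries and in JHU083 replicate 3. Over 14 such genes the sums were 5.5 to 43.1 CPM in JHU083, with replicate 3 the highest, 4.2 to 4.7 in WGFT17 and 38.0 to 46.6 in Control. WGFT17 and Control lie wholly on opposite sides of that split, so for them split and treatment cannot be told apart, and results are also given without JHU083 replicate 3. Heart muscle transcripts split the libraries another way: over 13 such genes the sums were 212, 1.14 and 349 CPM in JHU083 replicates 1 to 3, 0.661 to 0.963 in WGFT17 and 274 to 325 in Control, so JHU083 replicates 1 and 3 stand with Control and only JHU083 replicate 2 with WGFT17. A fit with a term for the 5 libraries high in heart transcripts, chosen after the data were seen, is given where it changes a call or bears on a comparison of the drugs. Only JHU083 has libraries on both sides of each split. A term for photoreceptor transcripts is thus set by JHU083 replicate 3 against replicates 1 and 2, and the heart term by replicate 2 against replicates 1 and 3. Changes in WGFT17 against Control with such a term lean on that library.

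Genes were tested where the mean FPKM over the 9 libraries was at least 1 (11798 genes). That took in 7 class II genes; Ciita and H2-Oa stood below it. A gene was called changed at a Benjamini-Hochberg adjusted p under 0.05 in edgeR's quasi-likelihood test, and every adjusted p below is from this test. A pair of numbers in parentheses after a gene gives its log2 change and adjusted p, and a single number after a log2 change is its adjusted p.

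In WGFT17 cells, the class II surface chains, the invariant chain and H2-DMa had lower RNA than in Control, while H2-DMb1 did not pass the test. Of the 7 tested genes, 6 fell against Control, where 58.0% of all tested genes were called and 30.0% fell. The falls were 6.96-fold for H2-Eb1, 6.13-fold for H2-Aa, 2.75-fold for Cd74, 2.501-fold for H2-Ab1, 1.97-fold for H2-DMa and 1.44-fold for H2-DMb2. The first 4 of these were at least 2-fold lower, a size reached by 10.9% of all tested genes. Of all tested genes, 207 (1.75%) had a larger fall than H2-Eb1, and 254 (2.15%) a larger fall than H2-Aa. The median log2 change of the 7 genes was -1.32, beside 0.00 over all genes tested. In bulk RNA, fewer cells of a type and less RNA per cell cannot be told apart.

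**Figure D1:**
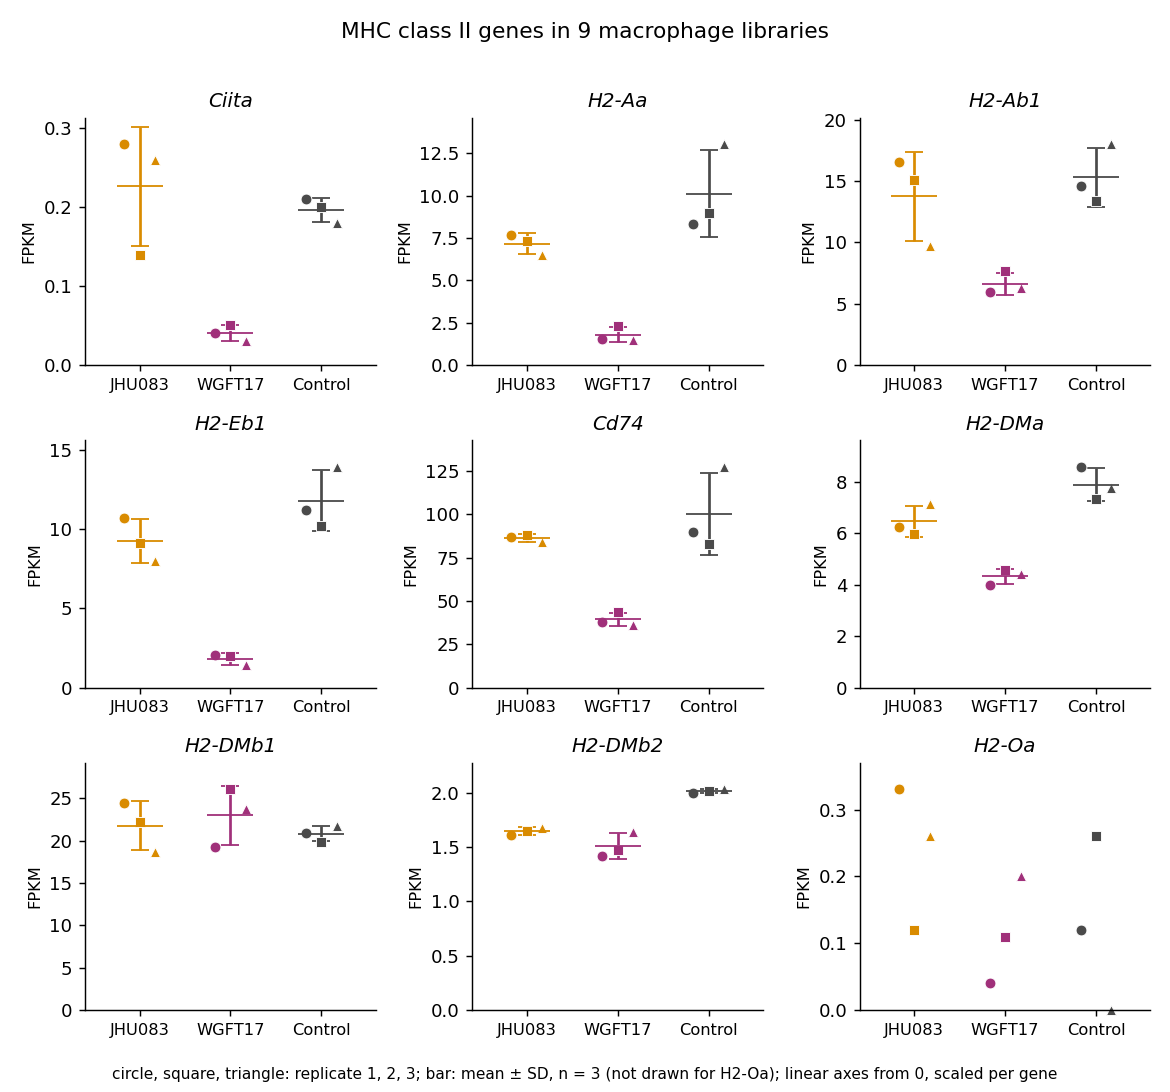
FPKM of the 9 class II genes in each library (y axes linear from 0, scaled per gene), with JHU083, WGFT17 and Control along the x axis; points are libraries and bars the mean ± SD, n = 3, left out for H2-Oa, which is listed at 0 in Control replicate 3. The WGFT17 libraries lie below all Control libraries in 7 panels, as they do for 28.2% of all tested genes, and the groups overlap for H2-DMb1 and H2-Oa.

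Ciita, the coactivator of the family, lies on chromosome 16 (10480059 to 10526426, plus strand). Coordinates here are those of the table. For the class II genes they equal GENCODE M21 (GRCm38) annotation, except for Ciita and Cd74, whose ranges differ from it. The FPKM of Ciita was 0.28, 0.14 and 0.26 in JHU083 replicates 1 to 3, 0.04, 0.05 and 0.03 in WGFT17, and 0.21, 0.20 and 0.18 in Control. The estimated counts behind these were 171, 90 and 157 in JHU083, 29, 39 and 19 in WGFT17, and 138, 144 and 130 in Control. Every WGFT17 library was below every other library (28.2% of all tested genes had WGFT17 wholly below Control), and JHU083 libraries lay on both sides of Control. Because Ciita is under the FPKM minimum, its test comes from the fit without a minimum (28998 genes). In that fit it was 5.01-fold lower in WGFT17 than in Control (log2 change -2.32 ± 0.35 SE, adjusted p = 0.000581), where 14.9% of all genes were lower. Against JHU083 it was 5.28-fold lower in WGFT17 (log2 change -2.40 ± 0.35 SE, adjusted p = 0.000589), where 11.7% of all genes were lower. With the heart term, which is set by JHU083 replicate 2, the Ciita changes in WGFT17 were -1.33 against Control, which did not pass, and -1.67 against JHU083. JHU083 against Control did not pass, with a log2 change of 0.08 and a 95% interval of -0.63 to 0.79. Ciita shares exonic bases with Dexi on the opposite strand, which averaged 2.40 FPKM in JHU083, 2.09 in WGFT17 and 2.22 in Control; the libraries were stranded, but the sources used here do not say whether the counting used strand.

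The chains of the surface molecules lie side by side on chromosome 17. H2-Aa (34282744 to 34287823, minus strand) encodes the alpha chain of I-A. It had 7.68, 7.31 and 6.50 FPKM in JHU083, 1.54, 2.30 and 1.49 FPKM in WGFT17, and 8.32, 9.00 and 13.0 FPKM in Control. The 3 groups did not overlap, and Control replicate 3 was the highest library. Its log2 change in WGFT17 against Control was -2.62 ± 0.20 SE (adjusted p = 9.01e-07).

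H2-Ab1 (34257689 to 34269419, plus strand) encodes the beta chain that pairs with H2-Aa. It had 16.6, 15.1 and 9.66 FPKM in JHU083, 5.92, 7.65 and 6.24 FPKM in WGFT17, and 14.6, 13.3 and 18.0 FPKM in Control. JHU083 replicate 3 stood below the other JHU083 libraries and below all Control libraries, and the WGFT17 libraries were lowest of all. The log2 change in WGFT17 against Control was -1.32 ± 0.19 SE (adjusted p = 0.000118). With a term for the libraries that carry photoreceptor transcripts it was -2.02, a value that leans on the low JHU083 replicate 3.

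H2-Eb1 (34305867 to 34316674, plus strand) encodes the beta chain of I-E; its alpha partner gene is known to be inactive in the C57BL/6 strain. It had 10.7, 9.14 and 7.98 FPKM in JHU083, 2.07, 1.99 and 1.40 FPKM in WGFT17, and 11.2, 10.2 and 14.0 FPKM in Control. The highest WGFT17 library, at 2.07 FPKM, stood far under the lowest of the others, JHU083 replicate 3 at 7.98 FPKM. The log2 change in WGFT17 against Control was -2.80 ± 0.18 SE (adjusted p = 1.84e-07), the largest fall of the 7 tested genes.

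Cd74 (chromosome 18, 60803848 to 60812646, plus strand), the invariant chain, was the highest of the family in every library. It had 86.8, 88.0 and 84.0 FPKM in JHU083, 37.9, 43.8 and 36.3 FPKM in WGFT17, and 90.0, 83.1 and 127 FPKM in Control. Control replicate 3 again stood above the rest, and no WGFT17 library reached the range of the other groups. The log2 change in WGFT17 against Control was -1.46 ± 0.14 SE (adjusted p = 5.17e-06).

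Of the genes of the peptide exchanger H2-DM, H2-DMa and H2-DMb2 fell in WGFT17 against Control and H2-DMb1 did not pass. H2-DMa (34119541 to 34139101, plus strand), its alpha chain, had 6.25, 5.97 and 7.13 FPKM in JHU083, 3.99, 4.55 and 4.41 FPKM in WGFT17, and 8.57, 7.31 and 7.76 FPKM in Control. The groups did not overlap, WGFT17 being lowest and Control highest, and the log2 change in WGFT17 against Control was -0.97 ± 0.10 SE (adjusted p = 7e-06). H2-DMa shares exonic bases with Brd2 on the opposite strand, and Brd2, a bromodomain protein gene, was higher in WGFT17 than in Control (log2 change 0.45, adjusted p = 4.98e-05).

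H2-DMb1 (34153072 to 34160230, plus strand), a beta chain of H2-DM, had 24.4, 22.2 and 18.7 FPKM in JHU083, 19.3, 26.1 and 23.7 FPKM in WGFT17, and 20.9, 19.9 and 21.7 FPKM in Control. All 3 groups overlapped. Its log2 change in WGFT17 against Control did not pass the test, at 0.03 with a 95% interval of -0.22 to 0.29, which does not reach the falls fitted for the other tested genes. H2-DMb2 (34143307 to 34151555, plus strand), the other beta chain gene, was lower in level: 1.61, 1.65 and 1.68 FPKM in JHU083, 1.42, 1.47 and 1.64 FPKM in WGFT17, and 2.00, 2.02 and 2.03 FPKM in Control. Control lay above both drug groups, which overlapped each other. The log2 change in WGFT17 against Control was -0.52 ± 0.15 SE (adjusted p = 0.0112). With a term for the libraries that carry photoreceptor transcripts it was -0.47, and with the heart term -0.53, and neither passed. The longest coding transcripts of H2-DMb1 and H2-DMb2 had the same base at 1143 of 1220 aligned positions (93.7%), so reads may be split between them and the values of H2-DMb2, the lower of the pair, are uncertain.

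H2-Oa (34092340 to 34095234, plus strand) encodes the alpha chain of H2-O, the inhibitor of H2-DM known mainly from B cells. Its FPKM was 0.33, 0.12 and 0.26 in JHU083, 0.04, 0.11 and 0.20 in WGFT17, and 0.12, 0.26 and 0 in Control, from at most 30 estimated counts a library. No difference was detectable at this depth, and no fold is given. Its partner gene H2-Ob, not among the 9, had 0.19, 0.06 and 0.12 FPKM in JHU083, 0.03, 0.02 and 0 FPKM in WGFT17, and 0.13, 0.16 and 0.16 FPKM in Control. In the fit without an FPKM minimum H2-Ob was lower in WGFT17 than in Control (log2 change -3.31 ± 0.81 SE, adjusted p = 0.0117) and than in JHU083 (-2.88 ± 0.81 SE, 0.0292), at levels so low that the size of the change is uncertain.

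FPKM is scaled to a transcript length, so the order of genes within a group depends on the length used for each gene. Estimated counts per FPKM averaged 180 for H2-Ab1, 266 for H2-Aa and 118 for H2-DMb1. Their longest annotated transcripts have 1212, 3223 and 1404 bases, so H2-Ab1 would stand higher per base of that transcript. The order given here is that of the deposited FPKM. In JHU083 the order of mean FPKM was Cd74 (86.2), H2-DMb1 (21.8), H2-Ab1 (13.8), H2-Eb1 (9.28), H2-Aa (7.16), H2-DMa (6.45) and H2-DMb2 (1.65), with Ciita and H2-Oa at 0.33 FPKM or less in each library. In WGFT17 it was Cd74 (39.3), H2-DMb1 (23.01), H2-Ab1 (6.60), H2-DMa (4.32), H2-Eb1 (1.82), H2-Aa (1.78) and H2-DMb2 (1.51), with Ciita and H2-Oa at 0.20 FPKM or less. In Control it was Cd74 (100.1), H2-DMb1 (20.8), H2-Ab1 (15.3), H2-Eb1 (11.8), H2-Aa (10.1), H2-DMa (7.88), H2-DMb2 (2.02) and Ciita (0.197), with H2-Oa at 0.26 FPKM or less. H2-Eb1, H2-Aa and H2-DMb2 overlapped in the WGFT17 order, and each of H2-Ab1, H2-Eb1, H2-Aa and H2-DMa overlapped with its neighbour among these in the Control order and, but for H2-Aa and H2-Eb1, in the JHU083 order.

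Ratios within a library do not depend on the scaling between libraries, but their level depends on the transcript length used for each gene. H2-Ab1 to H2-Aa, the FPKM ratio of the beta to the alpha chain of I-A, was 3.84, 3.33 and 4.19 in WGFT17, 2.15, 2.06 and 1.49 in JHU083, and 1.76, 1.48 and 1.38 in Control. With counts per base of the longest transcript its log2 difference in WGFT17 against Control was also 1.3. A fixed length per gene cancels in such a difference, so the equal value is no check of the lengths. All WGFT17 ratios were above all others (difference in mean log2 ratio against Control 1.30; two-sided exact permutation p = 0.1, the smallest that 3 against 3 allows, and 0.225 adjusted over the 9 ratio tests). Cd74 to the sum of H2-Aa, H2-Ab1 and H2-Eb1 was 3.98, 3.67 and 3.97 in WGFT17 and 2.63, 2.55 and 2.83 in Control (log2 difference 0.54, exact permutation p = 0.1; the difference was 0.34 with counts per base of the longest transcript). H2-Eb1 to H2-Aa was 1.34, 0.865 and 0.94 in WGFT17 and 1.35, 1.14 and 1.07 in Control, which overlapped (exact permutation p = 0.4). H2-DMb1 to H2-DMa, a ratio chosen after the values were seen and not tested, was 4.82, 5.73 and 5.38 in WGFT17 and 2.44, 2.72 and 2.80 in Control.

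**Figure D2:**
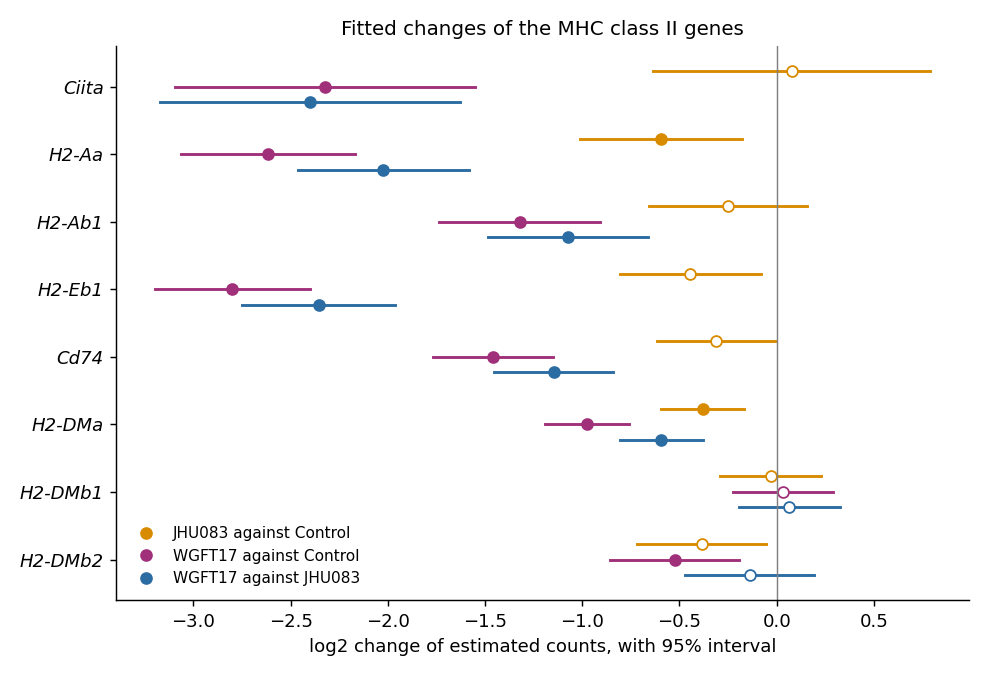
Log2 changes of estimated counts (x axis) for 8 class II genes (y axis) in JHU083 against Control, WGFT17 against Control and WGFT17 against JHU083, with 95% intervals; filled points passed an adjusted p under 0.05, and Ciita is from the fit without an FPKM minimum. The WGFT17 falls run to -2.80 for H2-Eb1, whereas the JHU083 changes lie between -0.59 and 0.08.

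In JHU083 cells 2 of the 7 tested class II genes fell against Control, H2-Aa by 1.51-fold and H2-DMa by 1.30-fold, beside 24.0% of all tested genes called and 12.5% lower. H2-Aa had a log2 change of -0.59 ± 0.19 SE (adjusted p = 0.0422), and of 6 fits that each left out a library its call held in 1, without Control replicate 1; without Control replicate 3 the change was -0.36 (adjusted p = 0.178). H2-DMa had a log2 change of -0.38 ± 0.10 SE (adjusted p = 0.0166), and its call was lost without JHU083 replicate 2 (adjusted p = 0.0554), Control replicate 1 (0.0628) or Control replicate 3 (0.0513). Neither passed in the fit without an FPKM minimum (0.112 for H2-Aa and 0.0515 for H2-DMa). Neither passed with the photoreceptor term, where the log2 change of H2-Aa was -0.725 (adjusted p = 0.0736) and that of H2-DMa -0.23 (0.173), or with the heart term (0.0803 and 0.0569). H2-Aa also did not pass with limma on log2(FPKM + 1) or log2(FPKM + 0.1) (adjusted p = 0.0714 and 0.0979).

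The other 5 tested genes did not pass in JHU083 against Control. Their 95% intervals of the log2 change were -0.81 to -0.08 for H2-Eb1, -0.72 to -0.06 for H2-DMb2, -0.61 to -0.01 for Cd74, -0.65 to 0.15 for H2-Ab1 and -0.29 to 0.23 for H2-DMb1. For H2-Ab1, JHU083 replicate 3 set the value: the log2 change was -0.25 with it (adjusted p = 0.346), -0.06 without it (0.779), and -0.75 with a term for the libraries that carry photoreceptor transcripts (0.0138), a fit in which JHU083 replicate 3 alone stands against Control.

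WGFT17 and JHU083 were given for the same time, and a test of one against the other addressed whether the falls differ. Of the 7 tested genes, 5 were lower in WGFT17 than in JHU083, beside 44.7% of all tested genes called and 24.4% lower. The log2 changes were -2.36 ± 0.18 SE for H2-Eb1 (adjusted p = 8.93e-07), -2.02 ± 0.20 for H2-Aa (8.47e-06), -1.15 ± 0.14 for Cd74 (4.38e-05), -1.07 ± 0.19 for H2-Ab1 (0.000689) and -0.59 ± 0.10 for H2-DMa (0.000436). H2-DMb2 and H2-DMb1 did not pass, with 95% intervals of -0.47 to 0.19 and -0.19 to 0.32. Without JHU083 replicate 3, so among libraries low in photoreceptor transcripts, the 5 log2 changes were -2.45, -2.08, -1.16, -1.27 and -0.51 in the same order, and all 5 passed. JHU083 replicate 1, kept in that fit, was high in heart transcripts; the heart term, which sets WGFT17 against JHU083 replicate 2 alone, gave -2.33, -2.05, -1.175, -1.205 and -0.48, and all 5 passed (adjusted p = 1.88e-05 to 0.0173). The doses are not given, so these are values of the cultures as treated and not of equal doses.

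The class II region also holds genes that are not class II members. From H2-Oa to H2-Eb1 lie 18 genes of the table in 224 kb, of which 11 were tested, 6 of them class II members. Of the other 5, 3 were higher in WGFT17 than in Control and 2 did not pass, beside 58.0% of all tested genes called and 28.0% higher. The higher ones were Brd2, Tap1 (log2 change 0.32, adjusted p = 0.00119) and Tap2 (0.52, adjusted p = 0.000298), the last pair encoding the peptide transporter of class I presentation. Psmb8 and Psmb9, immunoproteasome subunits had log2 changes of 0.16 (0.0737) and -0.12 (0.351).

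**Figure D3:**
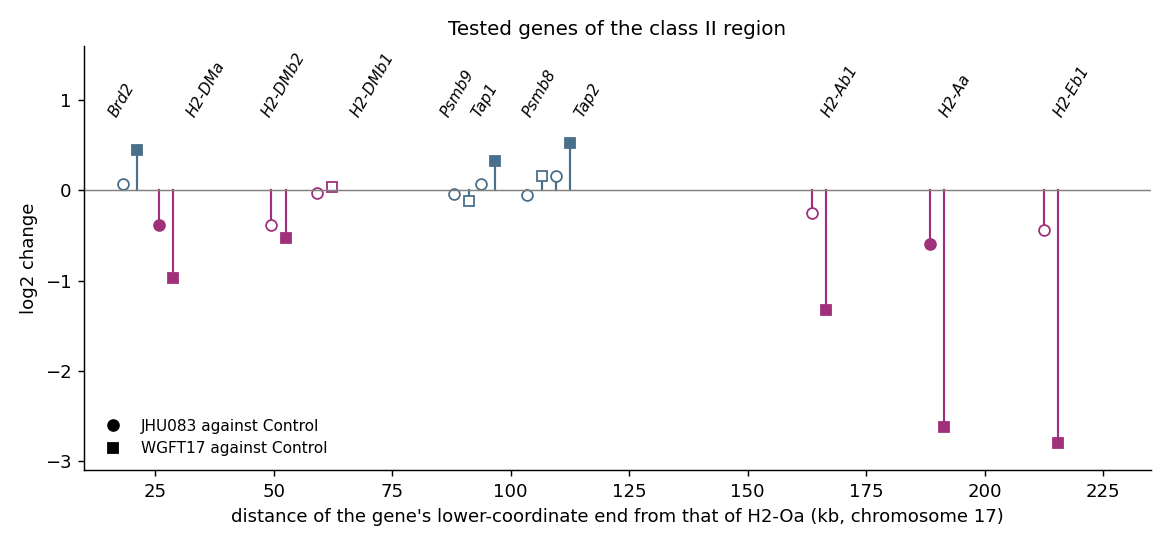
Log2 change (y axis) of the 11 tested genes of the class II region on chromosome 17 by distance in kb from the lower-coordinate end of H2-Oa (x axis); circles are JHU083 against Control, squares WGFT17 against Control, purple the class II members, and filled symbols passed an adjusted p under 0.05. The WGFT17 falls of H2-Ab1, H2-Aa and H2-Eb1 stand at 165 to 214 kb, while Brd2, Tap1 and Tap2 lie above 0.

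The RFX, NF-Y and CREB factors of class II promoters, listed together with the coactivators Ep300 and Crebbp, had log2 changes between -0.48 and 0.61 in WGFT17 against Control. Of the 9 genes listed, all tested, 5 rose and 2 fell in WGFT17 against Control, where 28.0% of all tested genes rose and 30.0% fell. Rfx5, a subunit of the X-box factor RFX, averaged 2.01 FPKM in WGFT17 and 2.61 in Control (log2 change -0.48, adjusted p = 0.00905), while its partners Rfxap (0.48, 0.0347) and Rfxank (0.31, 0.0303) were higher. Of the NF-Y subunits, which bind the Y box, Nfya was higher at 19.2 FPKM in WGFT17 and 11.7 in Control (log2 change 0.61, adjusted p = 1.17e-06), Nfyc was lower (-0.37, 0.0043) and Nfyb did not pass (-0.18, 0.167). The coactivators Ep300 (0.42, 0.000158) and Crebbp (0.22, 0.0343) were higher, and Creb1 did not pass (0.15, 0.146). In JHU083 against Control, Nfya (log2 change 0.36, adjusted p = 0.00125) and Ep300 (0.35, 0.00359) rose and 7 did not pass, where 11.5% of all tested genes rose.

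Of 20 listed receptors, signal carriers and lineage factors that act on Ciita, 18 were tested, and 6 rose and 4 fell in WGFT17 against Control. For this and every list below, 28.0% of all tested genes rose and 30.0% fell in WGFT17 against Control. In JHU083 against Control, 11.5% of all tested genes rose and 12.5% fell. The interferon-γ receptor chain Ifngr1 was lower, at 38.5 FPKM in WGFT17 and 48.8 in Control (log2 change -0.45, adjusted p = 3.68e-05). Both GM-CSF receptor chains were higher in WGFT17 than in Control, Csf2ra with a log2 change of 1.07 (adjusted p = 4.81e-05) and Csf2rb with 0.66 (2.72e-05). Irf1, a direct activator of Ciita, did not pass in WGFT17 (-0.17, 0.0722) and was higher in JHU083 than in Control (log2 change 0.33, adjusted p = 0.00967), as was Jak2 (0.30, 0.0108); in JHU083, 5 of the 18 rose and 13 did not pass. Of 18 interferon-γ responsive genes, 9 were tested, with 4 higher and 2 lower in WGFT17 and 5 higher in JHU083, the other 4 not passing; the guanylate-binding protein gene Gbp2 fell in WGFT17 (log2 change -0.95, adjusted p = 2.69e-06), Irgm2 rose there (0.52, 0.000275), and Gbp7 rose in JHU083 (0.54, 0.00709).

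Genes of endosomal processing and class II traffic mostly rose or did not pass. Of 19 listed, 17 were tested: 9 rose and 3 fell in WGFT17 against Control, and 1 rose in JHU083, where 16 did not pass. The lysosomal proteases Ctsl and Ctsd had log2 changes of 0.95 (adjusted p = 3.99e-07) and 0.74 (1.5e-06) in WGFT17, with Ctsl at 317 FPKM there and 152 in Control. Lamp1, a lysosomal membrane protein, rose as well (0.50, 5.66e-06). Marchf8, a ubiquitin ligase that can act on surface receptors, was higher in WGFT17 (0.63, 2.47e-06), and its relative Marchf1, which marks class II for removal, was higher in JHU083 than in Control (0.26, 0.0148) and lower in WGFT17 than in Control (-0.27, 0.00407) and than in JHU083 (-0.53, 4.26e-05). Tmem106a did not pass in either (0.10, 0.145 in WGFT17 and 0.14, 0.0897 in JHU083).

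Most class I presentation genes rose in WGFT17. Of 21 class I genes, all tested, 12 rose and 3 fell in WGFT17 against Control, and in JHU083 1 fell and 20 did not pass. The class I heavy chains H2-D1 and H2-K1 had log2 changes of 1.15 (adjusted p = 1.84e-06) and 0.86 (5.85e-06) in WGFT17, with H2-K1 at 369 FPKM there and 188 in Control. Nlrc5, the class I counterpart of CIITA, averaged 4.11 FPKM in WGFT17 and 2.25 in Control (log2 change 0.76, adjusted p = 9.17e-05). Of the chaperones of class I folding and loading, Calr fell by 1.08 on the log2 scale (2.09e-08) and Pdia3 by 0.76 (5.09e-07), while Tapbp, which encodes tapasin, rose (0.22, 0.0473); Calr also fell in JHU083, by 0.23 (0.0107), and H2-M3 did not pass there (0.25, 0.0532).

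Of 9 genes of T-cell costimulation, 6 were tested, and 3 rose and 3 fell in WGFT17 against Control. Cd274, which encodes PD-L1, averaged 27.5 FPKM in WGFT17 and 6.00 in Control (log2 change 2.09, adjusted p = 1.68e-09), and Cd86 averaged 14.8 FPKM in WGFT17 and 4.23 in Control (1.70, 1.2e-08). Icosl (log2 change -1.23, adjusted p = 4.63e-05) and the activation marker Cd83 (-0.63, 7.73e-05) fell. In JHU083 2 rose and 4 did not pass, Cd274 by 0.44 (0.00247) and Cd86 by 0.31 (0.0168).

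**Figure D4:**
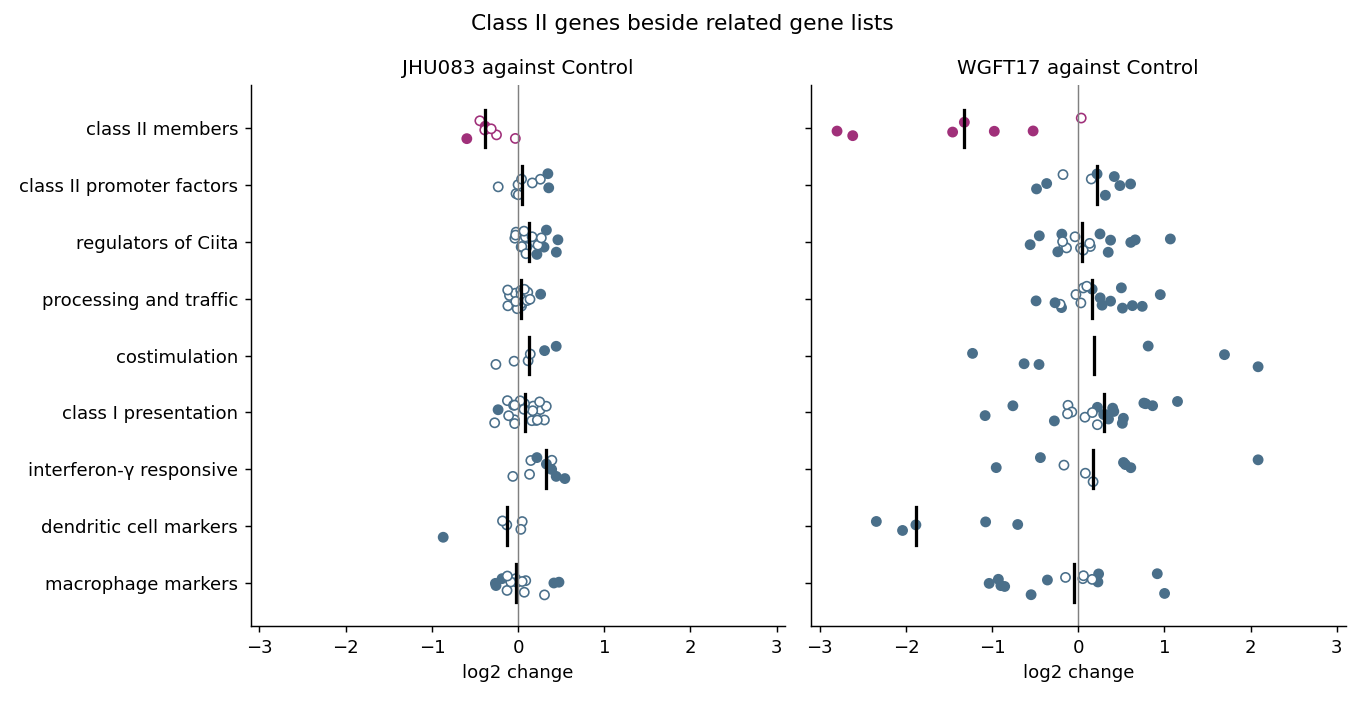
Log2 changes (x axis) of the tested genes of 9 lists (y axis) in JHU083 against Control (left) and WGFT17 against Control (right); each point is a gene, filled where its adjusted p was under 0.05, and black bars are list medians. In WGFT17 the median is -1.32 for the class II genes and -1.88 for the dendritic cell markers; lists not plotted had WGFT17 medians of -1.3 (B cell), -2.1 (stromal and endothelial), -5.53 (neutrophil), -7.09 (photoreceptor), -11.4 (heart muscle) and -1.18 (liver).

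Markers of other class II-bearing cells moved with these falls, and their part in the result was not tested. Of 16 dendritic cell markers, 5 were tested and all 5 were lower in WGFT17 than in Control, with a median log2 change of -1.88. The list summed to 112 to 132 CPM in WGFT17 and 425 to 495 CPM in Control, and to 373 to 458 CPM in JHU083, where 1 of the 5 was lower (Cd24a, log2 change -0.87, adjusted p = 0.0131). Itgax, which encodes CD11c and is also expressed by macrophages in GM-CSF, averaged 8.01 FPKM in WGFT17 and 37.7 in Control (log2 change -2.34, adjusted p = 2.93e-08). Fscn1 (-1.88, 3.07e-07), Mgl2 (-2.04, 1.14e-05) and Clec10a (-1.07, 2.79e-05) fell too. The 11 listed markers under the FPKM minimum were not tested. Of these, Flt3 reached at most 0.04 FPKM, Clec9a 0.11 and Xcr1 0.13 in any library, while Zbtb46 was 0.13 to 0.29 FPKM and Batf3, a factor of one conventional lineage, 0.45 to 0.85 FPKM over the 9 libraries. The migration receptor gene Ccr7 had 0.11 to 1.07 FPKM in JHU083, 0.43 to 0.96 in WGFT17 and 0.06 to 0.08 in Control, and Kmo, a kynurenine pathway enzyme gene, 0.37 to 0.42 FPKM in JHU083, 0.13 to 0.28 in WGFT17 and 0.85 to 0.89 in Control. The other 4 of the 11 reached at most 0.47 FPKM.

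Of 13 B cell markers, 5 were tested, and 3 were lower in WGFT17 and 1 in JHU083 than in Control. The summed levels were 82.8 to 89.3 CPM in JHU083, 47.8 to 52.5 CPM in WGFT17 and 103 to 113 CPM in Control. Ighm fell in WGFT17 (log2 change -2.68, adjusted p = 5.18e-09) and in JHU083 (-0.81, 0.000922), and Cd79b and Ebf1 fell in WGFT17 (-1.45 and -1.3), while Cd22 did not pass (-0.21, 0.122). Of the genes that define B cells, Ms4a1 reached at most 0.03 FPKM and Pax5 0.02, at or near 0 in every library.

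Among macrophage markers the directions were mixed, with 4 of 14 higher and 6 lower in WGFT17 against Control, and 2 higher and 3 lower in JHU083. Mrc1 (log2 change -1.03, adjusted p = 5.75e-07), C1qa (-0.93, 4.66e-07) and C1qc (-0.85, 1.54e-06) fell in WGFT17, and the scavenger receptor gene Msr1 rose (0.92, 1.4e-06). Neutrophil markers (3 tested of 9 listed) were lower in both drugs than in Control, 3 of 3 in JHU083 (median log2 change -2.07) and 3 of 3 in WGFT17 (-5.53), and their sum was 11.8 to 14.0 CPM in JHU083, 0.978 to 1.88 in WGFT17 and 46.0 to 52.8 in Control. Of the stromal and endothelial markers (11 tested of 14 listed), 7 were lower in JHU083 (median -0.406) and 11 in WGFT17 (-2.1). These moved along with the class II falls, and their part in them was not tested. The stromal sum was 2590 to 2770 CPM in WGFT17, 10300 to 11900 CPM in JHU083 and 15600 to 16700 CPM in Control.

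Over the 9 libraries, the non-member genes whose log2 FPKM followed the mean of the 7 tested class II genes most closely were Vsig8 (Pearson r = 0.99), Mmp19, Ptov1, Dpysl3, Ramp1 and Lbh (0.98 each). Vsig8 averaged 2.01 FPKM in JHU083, 0.76 in WGFT17 and 2.55 in Control, and Mmp19, a secreted metalloprotease gene, averaged 17.7 FPKM in JHU083, 11.9 in WGFT17 and 19.1 in Control. Cenps (0.99), Klhl13, Spata24 and Usp11 were nearest to Ciita, and Cenps averaged 2.13 FPKM in JHU083, 0.78 in WGFT17 and 1.94 in Control. An r of at least 0.9 was reached by 784 genes for the mean and by 578 for Ciita.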

How the data were processed

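RNA of 9 macrophage libraries, 3 each of JHU083, WGFT17 and Control, was sequenced as stranded, poly(A)-selected pairs of 150 bases, per the labels. One table was used. Per the file header it gives estimated counts (expected counts, whole numbers) and FPKM per gene and library, both deposited by the authors; tools named in the submitters' processing notes, with no roles given, are StringTie 2.1.6, HISAT2 2.2.1 and cutadapt 1.9, beside edgeR and DESeq2, and the build mm9. The table's gene ranges equal GENCODE M21 (GRCm38) for 87.1% of 28926 matched identifiers, so GRCm38 is named here. Low counts peak at multiples of 4, as when 1 read pair gives about 4 counts, so small values are less certain than counts of pairs would be.

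The test was edgeR 4.0.16 quasi-likelihood (R 4.3.3) with TMM factors on the estimated counts, all 9 libraries in 1 fit, a minimum mean FPKM of 1, and Benjamini-Hochberg adjustment within a comparison. The common dispersion was 0.0149. Simulated for WGFT17 against Control with 200 of 11798 genes changed, the fit found 73.5% at 1.5-fold, 93.0% at 2-fold and 99.5% at 4-fold. False calls were 13, 9 and 6 in the same order. Far more genes were called in the data, and the simulated spread followed the dispersion trend alone, so these shares need not hold for the data. Ratios per library were tested by exact permutation (SciPy 1.17.1), and transcripts were aligned with Biopython 1.88.

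The class II genes, the gene lists and the tests were chosen with earlier results of these data known. Genes of other lists were named by up to 4 of the smallest adjusted p in WGFT17 against Control and up to 2 in JHU083 against Control, plus all promoter factors. Values of some listed genes are not reported here, although the counts over the lists hold them. Named after their values were seen are H2-Ob, Dexi, Nlrc5, Adgre1, Tap1, Tap2, Psmb8, Psmb9, Tapbp, Actc1, Myh6 and the untested marker genes. Alternatives covered scaling, the FPKM minimum, 2-group fits, the replicate number as a block, DESeq2 1.42.0, limma 3.58.1 on log2(FPKM + 1 or 0.1), counts divided by 4, a term for libraries with photoreceptor transcripts, one, added after the data were seen, for libraries with heart transcripts, and each library left out.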

Additional observations from a re-analysis of the deposited data

How the results depend on the processing

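Of 426 log2 changes of the class II genes under alternatives, 388 kept their direction and side of the threshold, 20 lost the call, 4 gained it and 14 turned direction. In WGFT17, H2-Aa, H2-Ab1, H2-Eb1, Cd74 and H2-DMa passed under every alternative run, against Control and against JHU083; without a library, 6 and 5 class II genes were called each time. All that turned were H2-DMb1 and Ciita, never past the threshold. H2-DMb1 turned in JHU083 against Control with library totals alone (0.0011) and with limma at pseudocounts of 1 (0.053) and 0.1 (0.055), and with a library left out ran from -0.12 to 0.060. With the photoreceptor term it was -0.27 in WGFT17 against Control and -0.028 against JHU083, and with the heart term -0.0081 against Control; with a library left out it ran from -0.068 to 0.15 and from -0.037 to 0.18. Ciita, in fits chosen after the data were seen, ran from -0.089 to 0.34 in JHU083 against Control with a library left out, and from -2.588 to -2.103 in WGFT17 against Control. In JHU083 against Control, 2 class II genes were called, but 0 without an FPKM minimum, 1 with the photoreceptor term (H2-Ab1, not H2-Aa or H2-DMa), 0 with the heart term, 3 with DESeq2, and 0 to 1 with a library left out. All genes called there were 2831, and 1534 to 3731 with a library left out. With a minimum of 5 FPKM, fewer genes were tested, and 4151 (WGFT17 against Control) and 3305 (against JHU083) were called, beside 6837 and 5277; with the heart term 3525 were called in WGFT17 against Control. The log2 difference of the Cd74 ratio in WGFT17 against Control was 0.341 with counts per base. Per base, H2-Ab1 weighs more in the sum of the surface chains than by FPKM, and it fell least of them.

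Same-numbered libraries did not deviate together (correlations of deviations from group means -0.034 to 0.16), so replicate numbers were not treated as pairs. With the replicate block, 1, 6 and 5 class II genes were called in JHU083 against Control, WGFT17 against Control and WGFT17 against JHU083, and H2-Aa lost its JHU083 call (adjusted p = 0.0691). The ratio of H2-Oa to H2-DMa was not computed, since H2-Oa is listed at 0 in a library. Leaving out a library leaves its group with 2, so the spread rests more on the others. Depth limits Ciita and H2-Oa.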

Other observations

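Within groups, the class II genes did not all vary together. Taking each library's log2(FPKM + 1) as a deviation from its group mean, H2-Aa and Cd74 had r = 0.91, H2-Aa and H2-Eb1 0.72, H2-Aa and H2-Ab1 0.73, and H2-Ab1 and H2-DMb1 0.83, whereas H2-DMa had -0.13 with H2-Aa and -0.30 with H2-Eb1, and Ciita had -0.11 with H2-Aa. These are descriptions over 9 libraries that share 3 group means and the library scaling, and no test was run.

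Other lists gave these counts. Of 5 markers of plasmacytoid dendritic cells, 1 was tested, Cox6a2, a subunit of cytochrome c oxidase known mainly from muscle; it averaged 23.4 FPKM in WGFT17, 3.97 in JHU083 and 4.93 in Control (WGFT17 against Control, log2 change 2.13, edgeR adjusted p = 0.00221), while Siglech reached at most 0.04 FPKM. Of 9 T cell markers, 1 was tested, Cd4, which fell in WGFT17 (-1.04, 1.28e-06). Among those under the FPKM minimum, Lck averaged 1.02 FPKM in WGFT17, 0.407 in JHU083 and 0.20 in Control. Cd8a averaged 0.40 FPKM in WGFT17, 0.12 in JHU083 and 0.0367 in Control. Cd3e, Cd3d, Cd3g and Cd2 also averaged higher in WGFT17 than in Control, and Trac and Cd5 lower, with at most 1.5 FPKM in any library. All 8 tested heart muscle genes, all 3 tested photoreceptor genes and 14 of 17 liver genes were lower in WGFT17 than in Control, whereas in JHU083 against Control 15 of the 17 liver genes were lower and the 8 heart and 3 photoreceptor genes did not pass. Within JHU083 the libraries split: Actc1, cardiac actin, had 18.54, 0 and 36.88 FPKM in replicates 1 to 3, and Myh6, a cardiac myosin, 9.42, 0 and 15.54. Of 8 further genes listed for the class II region, 5 were in the table and 1, Brd2, was tested.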
